A study of Homo sapiens with 72 samples.

Results

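The genes described here are 10 members of the ephrin and Eph receptor family, namely EFNA1, EFNA3, EFNA4, EFNA5, EFNB1, EFNB2, EFNB3, EPHA2, EPHB2 and EPHB4, among 60279 genes quantified in U2OS cells. They were listed by name and followed through every compound and dose. The members were chosen by measured values as well as by name, since the fall of EFNA4 in count with triptolide against DMSO, among the largest of all genes, put the family on the list, so all values with triptolide are given as a description and carry no test. U2OS is a human osteosarcoma cell line, grown here in 24-well plates and exposed for 12 h before poly(A) RNA was taken from each well for population RNA-seq. There were 72 wells: 18 with the vehicle DMSO and 3 at each of 100, 1000 and 10000 nM of 6 compounds. Triptolide inhibits transcription through the XPB helicase of TFIIH, and homoharringtonine inhibits translation at the ribosome. Pyrazolanthrone is a JNK inhibitor, nilotinib a BCR-ABL kinase inhibitor, MK-2206 an allosteric AKT inhibitor and miglitol an alpha-glucosidase inhibitor. All groups were the same cell line, and no source used here says that the wells of a group came from separate cultures, so p-values measure the spread between wells only, which may be technical.

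Ephrins are ligands that stay on the surface of the cell that makes them. The A class is held in the membrane by a lipid (GPI) anchor and the B class spans it, and both bind Eph receptors, a large family of receptor tyrosine kinases, on a neighbouring cell. Signals run forward into the receptor cell and in reverse into the ligand cell, and steer repulsion, adhesion, boundary formation and vessel growth. In bone, ephrin-B2 and EphB4 act between osteoclasts and osteoblasts, and EphA2 is often abundant in cultured tumour cells.

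The genes lie on 6 chromosomes (GRCh38, GENCODE release 44). 3 of the A ligands form a cluster on the plus strand of chromosome 1, with EFNA4 (ENSG00000243364) at chr1:155063737-155069553, EFNA3 (ENSG00000143590) at chr1:155078837-155087538 and EFNA1 (ENSG00000169242) at chr1:155127876-155134899. EFNA5 (ENSG00000184349) lies at chr5:107376894-107670937 on the minus strand. The B ligands are EFNB1 (ENSG00000090776) at chrX:68829021-68842160, plus strand, EFNB2 (ENSG00000125266) at chr13:106489745-106535662, minus strand, and EFNB3 (ENSG00000108947) at chr17:7705202-7711372, plus strand. The receptors are EPHA2 (ENSG00000142627) at chr1:16124337-16156069, minus strand, EPHB2 (ENSG00000133216) at chr1:22710839-22921500, plus strand, and EPHB4 (ENSG00000196411) at chr7:100802565-100827523, minus strand. A readthrough gene, EFNA4-EFNA3, an antisense gene, EPHA2-AS1, and SLC12A9, a neighbour of EPHB4, overlap members, and whether counting used strand is not given in the sources used here, so reads in the shared stretches may have been split between them.

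The promoters of 4 members are shown because they stand for different patterns: EFNA4 and EFNA1 had the lowest fitted values with triptolide at the 2 higher doses, EPHA2 was higher with both strong inhibitors under the main scaling, and EPHB4 was lower with both. Each is the RefSeq (GRCh38.p14) window from 250 bases before to 50 bases after the start of the gene, 5′ to 3′ on the strand of the gene, and such windows were matched for 9 of the 10 members. The windows are chr1:155063490-155063789 (plus) for EFNA4, chr1:155127626-155127925 (plus) for EFNA1, chr1:16156020-16156319 (minus) for EPHA2 and chr7:100827474-100827773 (minus) for EPHB4. Capitals mark the GC box, GGGCGG or its reverse complement CCGCCC, and in EPHA2 also the palindrome TGACGTCA, the letters of a cAMP response element.
EFNA4: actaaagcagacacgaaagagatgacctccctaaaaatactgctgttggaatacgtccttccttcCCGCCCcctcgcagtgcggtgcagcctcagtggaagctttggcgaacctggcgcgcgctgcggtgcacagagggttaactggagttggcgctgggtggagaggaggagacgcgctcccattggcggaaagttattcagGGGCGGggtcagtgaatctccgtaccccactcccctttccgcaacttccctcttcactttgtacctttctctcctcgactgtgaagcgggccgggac
EFNA1: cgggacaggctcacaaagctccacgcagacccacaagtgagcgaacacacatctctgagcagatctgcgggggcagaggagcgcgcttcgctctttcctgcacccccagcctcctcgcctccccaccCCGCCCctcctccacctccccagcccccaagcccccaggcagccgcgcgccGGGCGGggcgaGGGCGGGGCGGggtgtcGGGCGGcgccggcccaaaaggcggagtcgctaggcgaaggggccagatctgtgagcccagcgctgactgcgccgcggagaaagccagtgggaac
EPHA2: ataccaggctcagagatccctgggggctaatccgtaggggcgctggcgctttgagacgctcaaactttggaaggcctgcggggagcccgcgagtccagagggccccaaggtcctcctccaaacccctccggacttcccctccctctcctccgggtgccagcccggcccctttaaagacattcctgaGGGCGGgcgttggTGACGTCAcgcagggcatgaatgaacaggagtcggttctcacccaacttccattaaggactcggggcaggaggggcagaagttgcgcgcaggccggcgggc
EPHB4: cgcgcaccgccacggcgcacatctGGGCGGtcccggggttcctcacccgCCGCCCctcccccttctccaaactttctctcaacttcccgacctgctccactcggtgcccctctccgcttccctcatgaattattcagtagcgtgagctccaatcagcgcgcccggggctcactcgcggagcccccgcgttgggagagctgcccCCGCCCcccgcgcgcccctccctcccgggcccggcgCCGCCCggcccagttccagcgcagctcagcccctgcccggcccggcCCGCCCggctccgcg
A GC box stood in 9 of the 9 windows, against 45.0% of the 35116 promoters of the table, with 5 in EFNA1, of which 2 overlap, 5 in EPHB4, 4 in EFNA5, 3 in EFNB2, 2 each in EFNA3 and EFNA4, and 1 each in EFNB1, EPHA2 and EPHB2. Their GC content was 58.3 to 83.0%, against a median of 58.7% over all promoters. The letters of the CCAAT box stood in 4 of the 9 (34.6% of all), TATAAA in EFNB2 alone (11.5% of all) and the cAMP response element in EPHA2 alone (1.8% of all). All motifs were searched on both strands. The E-box letters CACGTG stood in 0 of the 9 windows (7.3% of all), as did the AP-1 letters TGANTCA (7.7% of all) and the ETS letters CCGGAAG (10.3% of all). These matches describe letters only.

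Depth was 0.0704 to 68.3 mil expected counts per well (median 38.3). 3 libraries had under 10 mil: DMSO replicate 10 (0.459 mil), triptolide 100 nM replicate 2 (70414 counts) and triptolide 1000 nM replicate 1 (9.52 mil). Values from these wells are named where they bear on a result. Libraries also differed in how strongly counts followed transcript GC content, as a slope of the log2 level per 10 percentage points of GC over 9563 genes: −0.437 to 0.311 in the DMSO wells and −0.647 to −0.501 with homoharringtonine at 10000 nM. The osteosarcoma label was checked in the DMSO wells by median TPM: the osteoblast lineage genes SPARC (2137) and COL1A1 (452.3) and the mesenchymal gene VIM (1868) were high, RUNX2 (3.81) and ALPL (3.79) were low, COL1A2 (0.07) and BGLAP (0.425) were near 0, and SP7 and IBSP were at 0. Markers of other cell types were at 2.38 (EPCAM), 0.4 (CDH1), 0.11 (PECAM1), 0.07 (CDH5), 0.035 (PTPRC), 0.02 (MYOD1) and 0 (ALB). In such bulk wells, fewer cells and less RNA per cell cannot be told apart, and every value below is a level relative to the other RNA of its well.

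In DMSO, the 3 receptors were the most abundant members and EFNB2 was at the detection limit. On the length-corrected TPM scale, EPHA2 was at 63.6 ± 10.96 (SD, n = 18 wells), EPHB2 at 62.8 ± 11.2 and EPHB4 at 41.2 ± 6.64. The A ligands followed with EFNA4 at 22.8 ± 4.69, EFNA3 at 18.8 ± 4.32, EFNA1 at 9.45 ± 1.65 and EFNA5 at 7.12 ± 1.21, and of the B ligands EFNB1 was at 18.5 ± 2.27, EFNB3 at 8.68 ± 0.70 and EFNB2 at 0.028 ± 0.020. By median TPM the order was EPHA2, EPHB2, EPHB4, EFNA4, EFNA3, EFNB1, EFNA1, EFNB3, EFNA5 and EFNB2, and FPKM gave the same order. Leaving out the shallow DMSO replicate 10, the wells of neighbours in this order overlapped except at 3 steps: EPHB4 (lowest 33.9) lay above EFNA4 (highest 27.8), EFNB1 (lowest 14.7) above EFNA1 (highest 12.2), and EFNA5 (lowest 5.69) above EFNB2 (highest 0.08). With that well, which held 14 counts of EFNA4 and stood at 37.5 TPM, EPHB4 and EFNA4 overlapped too. EPHA2 was higher than 87.4% of protein-coding genes and EFNA5 than 53.1%, whereas EFNB2 was higher than 21.0%.

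**Figure D1:**
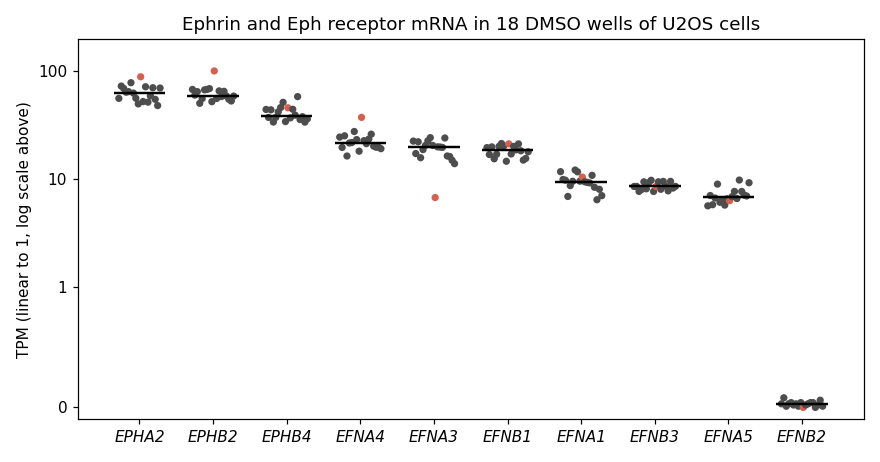
TPM of the 10 members in the 18 DMSO wells, one point per well (y axis linear to 1 and logarithmic above), with a bar at the median of each gene and the shallow replicate 10 in red. The 3 receptors lie highest, with medians of 38.7 to 63.6 TPM, and EFNB2 lowest at 0.03.

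With homoharringtonine, the receptors parted: EPHA2 was several-fold higher than in DMSO at each dose, EPHB4 was lower at each dose, and EPHB2 was slightly higher at 100 nM and lower at 10000 nM. EFNB3 fell the most of the ligands, 26.9-fold at 10000 nM, and EFNA1 was the only ligand tested that rose in the main fit. The test was edgeR's quasi-likelihood test against the 18 DMSO wells, with adjusted p (Benjamini-Hochberg) over all genes tested, and a gene is called changed where that is under 0.05. At 100 nM 3 of the 9 members tested rose and 6 fell (background over all genes tested, 31.3% rose and 32.5% fell), at 1000 nM 2 rose and 7 fell (35.1% and 33.6%), and at 10000 nM 2 rose and 7 fell (37.0% and 37.3%). Since most genes were called with this compound, a call by itself says little of the family, and the sizes follow. Of all calls, 49.0% were rises at 100 nM and 37.2% with library sizes alone as scaling, which moved the median of all genes by −0.22 there and by −0.14 at 1000 nM, and mitochondrial mRNA scaling moved it by −0.28 at 10000 nM. The median log2(Fold Change) of the members was −1.05, −0.59 and −0.96 at the 3 doses, against −0.03, −0.01 and −0.04 over all genes. EFNB2 did not pass the filter on low counts, and the 3 doses share the same DMSO wells.

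EFNA1, a ligand first described as a gene induced by tumour necrosis factor, was at 5.27, 7.02 and 9.44 normalised CPM (lowest, median and highest) in the DMSO wells. It was at 12.96, 9.85 and 12.6 in the wells with 100 nM homoharringtonine, 16.1, 12.7 and 10.8 with 1000 nM and 9.29, 10.3 and 10.5 with 10000 nM. All wells but the lowest at 10000 nM stood above every DMSO well. This gave a log2(Fold Change) of 0.74 ± 0.13 (SE, n = 3 against 18; adjusted p = 3.88e-05), 0.88 ± 0.14 (4.88e-06) and 0.47 ± 0.12 (0.00173). With scaling to mitochondrial mRNAs the call ended at 100 nM (0.61) and 10000 nM (0.14). At 10000 nM it also ended with the replicate block (0.28), where the well number is a factor and DMSO wells 1 to 3 alone are controls. With that block and the GC slope together it ended at 100 nM (0.76) and 10000 nM (0.71).

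EFNA3 and EFNA4, neighbouring ligand genes, were both lower. EFNA3 was at 7.02, 18.1 and 23.0 normalised CPM in DMSO (lowest 13.1 without the shallow replicate 10), at 5.34, 6.00 and 7.12 with 100 nM homoharringtonine, 14.5, 9.80 and 8.22 with 1000 nM and 8.49, 9.87 and 9.39 with 10000 nM. EFNA4 was at 11.8, 15.8 and 24.6 in DMSO, 7.36, 6.82 and 8.66 with 100 nM, 13.1, 10.2 and 8.35 with 1000 nM and 10.9, 10.2 and 10.96 with 10000 nM. Leaving out DMSO replicate 10, 1 well of each gene lay inside the DMSO range at 1000 nM, and at 100 and 10000 nM all wells of both genes lay below it. The log2(Fold Change) of EFNA3 was −1.51 ± 0.21 (adjusted p = 6.49e-07), −0.71 ± 0.21 (0.00414) and −0.96 ± 0.18 (4.22e-05), and that of EFNA4 was −1.05 ± 0.17 (6.41e-06), −0.59 ± 0.17 (0.0036) and −0.59 ± 0.15 (9.57e-04). Without replicate 3 of 1000 nM neither gene passed at that dose (−0.53 for EFNA3, −0.44 for EFNA4). With the GC slope of each library in the fit, EFNA3 was −1.23, −0.39 and −0.40, called at each dose, and EFNA4 was −0.81, −0.31 and, no longer called, −0.14 (adjusted p = 0.337). The slope was made from the gene levels of the same wells. At 10000 nM it lay wholly below the DMSO range, so slope and compound cannot be told apart there.

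EFNA5, a ligand studied for its repulsion of growing axons, was at 1.76, 6.91 and 8.63 normalised CPM in DMSO (lowest 5.04 without replicate 10). It was at 3.08, 2.97 and 2.78 with 100 nM homoharringtonine, 1.78, 1.92 and 1.84 with 1000 nM and 1.75, 1.94 and 2.07 with 10000 nM. Every treated well stood below all DMSO wells but the shallow one, where a single count was recorded. EFNA5 had a log2(Fold Change) of −1.21 ± 0.15 (adjusted p = 1.15e-07), −1.89 ± 0.16 (1.51e-10) and −1.86 ± 0.15 (9.84e-11).

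Of the transmembrane ligands, EFNB1, the gene altered in craniofrontonasal syndrome, moved little. It was at 29.3, 40.8 and 48.6 normalised CPM in DMSO, 27.4, 27.0 and 37.5 with 100 nM homoharringtonine, 33.7, 26.3 and 21.6 with 1000 nM and 30.9, 30.1 and 25.2 with 10000 nM, so the groups overlapped at each dose. The log2(Fold Change) was −0.36 ± 0.14 (adjusted p = 0.0268), −0.54 ± 0.15 (0.00209) and −0.48 ± 0.12 (0.00119). At 100 nM it did not pass without replicate 1 (−0.30) or without replicate 2 (−0.28), and with the GC slope in the fit it was −0.12 (adjusted p = 0.0889) at 100 nM and −0.02 (0.873) at 10000 nM. EFNB2, the partner of EphB4 in arteries and veins, was at 0.0809 normalised CPM in DMSO (median, highest 0.22) and between 0.123 and 0.392 over the 9 homoharringtonine wells, and was not tested.

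EFNB3, a ligand known from the midline of the spinal cord, was at 15.8, 17.4 and 20.8 normalised CPM in DMSO. It was at 3.65, 4.50 and 4.32 with 100 nM homoharringtonine, 1.68, 1.59 and 1.23 with 1000 nM and 0.643, 0.63 and 0.769 with 10000 nM. Every treated well stood below every DMSO well, and the wells of the 3 doses did not overlap one another. Its log2(Fold Change) was −2.12 ± 0.11 (adjusted p = 4.29e-14), −3.60 ± 0.14 (7.04e-17) and −4.75 ± 0.13 (3.22e-19).

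EPHA2, a receptor for the A ligands, was at 127.7, 165.9 and 203.7 normalised CPM in DMSO. It was at 830.0, 880.8 and 1118 with 100 nM homoharringtonine, 872.6, 640.7 and 578.4 with 1000 nM and 432.9, 417.8 and 405.8 with 10000 nM. All 9 treated wells lay above every DMSO well, and the highest levels were at the lowest dose. The rise came to a log2(Fold Change) of 2.56 ± 0.12 (5.89-fold; adjusted p = 3.21e-15), 2.11 ± 0.13 (4.86e-13) and 1.35 ± 0.12 (5.17e-10). Its overlapping antisense gene EPHA2-AS1, at a median of 1.08 CPM in DMSO, was at 0.33 on the log2 scale at 100 nM, where it was not called, and at −1.42 and −2.0 at 1000 and 10000 nM, where it fell.

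EPHB2, a receptor for the B ligands that orders cells along the intestinal crypt, was at 139.4, 163.8 and 199.2 normalised CPM in DMSO. It was at 193.4, 211.0 and 265.5 with 100 nM homoharringtonine, 150.3, 119.6 and 108.5 with 1000 nM and 84.1, 85.7 and 80.9 with 10000 nM. The wells at 100 nM reached above the DMSO range and those at 10000 nM lay wholly below it. Against DMSO the log2(Fold Change) was 0.41 ± 0.11 (adjusted p = 0.0026), −0.43 ± 0.12 (0.00304) and −1.05 ± 0.10 (2.90e-09). The rise at 100 nM did not pass without replicate 3 of that dose (0.25) or with the replicate block (0.22). Nor did it pass with scaling by library size alone (0.17) or to mitochondrial mRNAs (0.29). The fall at 1000 nM did not pass with mitochondrial mRNA scaling (−0.48) or with the block and GC slope together (−0.24).

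EPHB4, the receptor for ephrin-B2, was at 89.0, 103.5 and 132.7 normalised CPM in DMSO. It was at 18.4, 22.4 and 31.5 with 100 nM homoharringtonine, 23.1, 17.5 and 16.3 with 1000 nM and 19.8, 17.8 and 19.7 with 10000 nM. All 9 wells lay far below the DMSO range, at a like level for all doses. The log2(Fold Change) was −2.15 ± 0.18 (adjusted p = 1.57e-10), −2.51 ± 0.17 (4.98e-12) and −2.52 ± 0.15 (1.45e-13), and with the GC slope in the fit it was −1.90, −2.23 and −2.05. SLC12A9, the chloride cotransporter family gene that overlaps it, was lower too, with −1.75, −1.16 and −1.12.

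Within homoharringtonine, a linear trend on log10 dose over the 9 wells, without DMSO, fell for 4 of the 9 members and rose for 0 (all genes, 23.0% fell and 21.2% rose, edgeR). The 4 were EFNB3, with a log2 change per 10-fold dose of −1.34 ± 0.10 (adjusted p = 7.93e-06), EPHB2 with −0.74 ± 0.08 (5.99e-05), EPHA2 with −0.62 ± 0.08 (2.27e-04) and EFNA5 with −0.34 ± 0.10 (0.0192). Rises made 48.0% of all calls on the trend, and 65.9% with library sizes alone. EPHA2 stood above DMSO at each dose and declined with dose, while EFNB3 stood below DMSO and declined further. The trend was not called for EPHB4 (−0.20, adjusted p = 0.133), EFNA4 (0.21, 0.0887) or EFNA3 (0.26, 0.159). With the GC slope in the fit the trend rose for both EFNA4 (0.33, 0.0013) and EFNA3 (0.44, 0.0043), so 4 fell and 2 rose. For that fit the share of all genes is not given here. EFNA5 did not pass without replicate 1 or 2 of 100 nM or replicate 1 of 10000 nM.

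**Figure D2:**
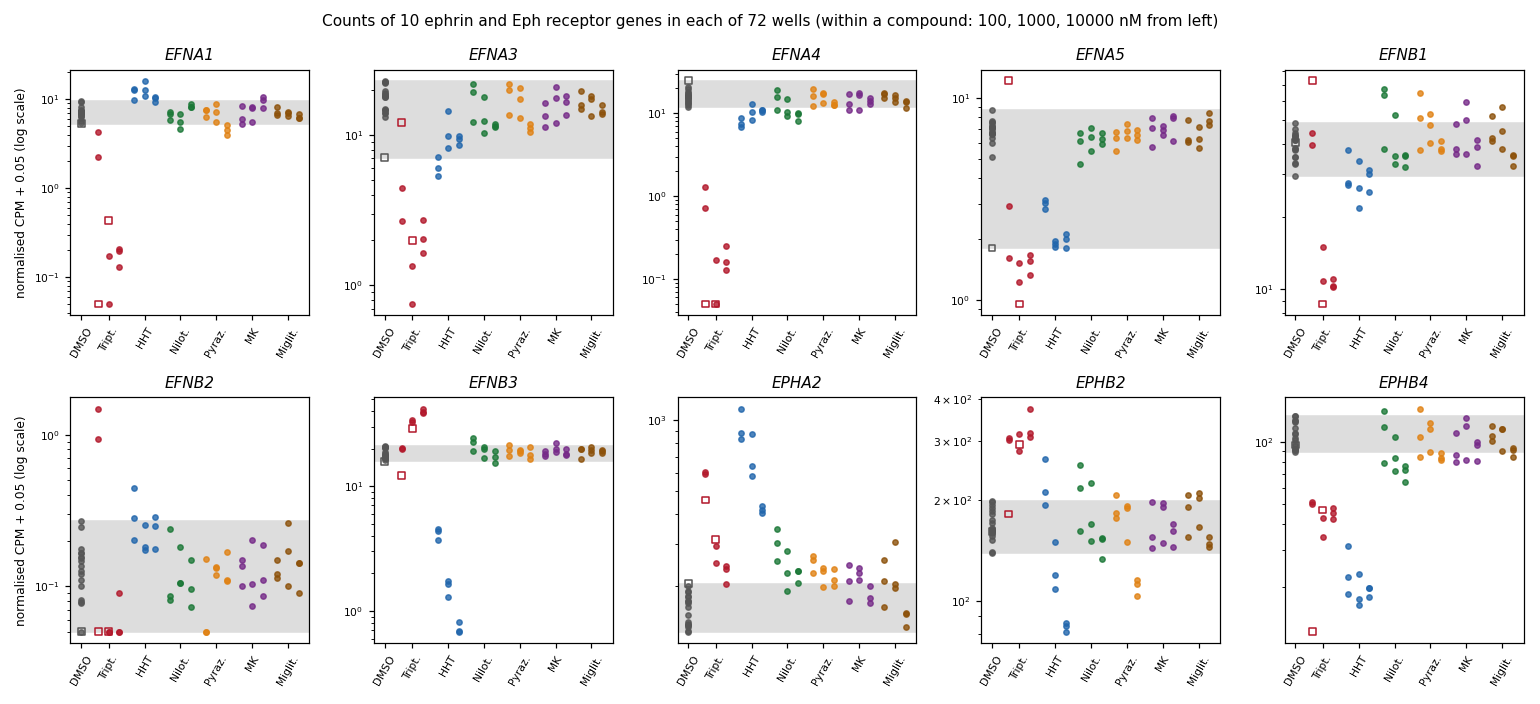
Normalised CPM plus 0.05 (log axis) of each member in every well, one panel per gene, with DMSO and the 6 compounds along the x axis and doses rising from left to right within a compound. Grey bands span the 18 DMSO wells and open squares are the 3 shallow libraries. EFNB3 with homoharringtonine (HHT) lies between 0.63 and 4.50 and EPHA2 between 405.8 and 1118.

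With triptolide, EFNA4 and EFNA1 were down to a handful of counts at the 2 higher doses while EPHB2 at each dose, EPHA2 at each dose and EFNB3 at the 2 higher doses had TMM-scaled values above DMSO, which for EPHA2 at 10000 nM was not so with library sizes alone. These contrasts chose the list and are described without a test. Over all genes, 24.4% rose and 32.4% fell at 100 nM, 28.8% and 38.7% at 1000 nM, and 32.4% and 39.7% at 10000 nM, and no count of members is set against these shares. Rises made 43.0, 42.7 and 44.9% of all calls, and 26.2, 25.3 and 25.2% with library sizes alone. The median log2(Fold Change) over all genes was −0.16, −0.22 and −0.17 at the 3 doses. Levels are set by scaling here: the share of mitochondrial mRNAs, made by another polymerase, was 0.138 to 0.367% of counts in DMSO and 1.009 to 1.154% with 10000 nM triptolide, and scaling to them moved the median of all genes by −1.65, −2.47 and −2.76 on the log2 scale.

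EFNA4 was at 11.8 to 24.6 normalised CPM in DMSO. With 100 nM triptolide it was at 1.25 (35 counts), 0 and 0.664 (6 counts), the 0 being in the library of 70414 counts, where no count allows up to 36.3 normalised CPM. With 1000 nM it was at 0, 0 and 0.121 (5 counts), where no count allows up to 0.388 and 0.351, and with 10000 nM at 0.199, 0.109 and 0.0794 (5, 3 and 2 counts). All triptolide wells but the shallowest, which cannot show a level of this size, lay far below every DMSO well. The fitted log2(Fold Change) was −3.92, −7.54 and −6.95, and at the higher doses these values rest on so few counts that they depend on the prior of the fit.

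EFNA1 was at 2.21, 0 and 4.21 normalised CPM with 100 nM triptolide, 0.388, 0 and 0.121 with 1000 nM (3, 0 and 5 counts) and 0.0794, 0.146 and 0.159 with 10000 nM (2, 4 and 4 counts). The fitted log2(Fold Change) was −1.23, −5.64 and −5.80. EFNA3 and EFNA5 kept more: at 10000 nM EFNA3 was at 1.59, 2.00 and 2.66 and EFNA5 at 1.63, 1.27 and 1.51. The log2(Fold Change) at the 3 doses was −2.35, −3.79 and −3.13 for EFNA3 and −1.65, −2.46 and −2.26 for EFNA5. At 1000 and 10000 nM the 4 A ligands all lay below every deep DMSO well.

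The B ligands went apart. EFNB1 was at 39.3, 72.6 (6 counts) and 44.3 normalised CPM with 100 nM triptolide, 8.66, 14.9 and 10.8 with 1000 nM and 10.96, 10.2 and 10.2 with 10000 nM, a log2(Fold Change) of 0.14, −1.80 and −1.96. EFNB3 was at 20.3, 12.1 (1 count) and 19.7 with 100 nM, 29.1, 32.5 and 33.8 with 1000 nM and 41.8, 38.4 and 39.6 with 10000 nM, or 0.13, 0.80 and 1.09. The same gene was thus the lowest ligand relative to DMSO with 10000 nM homoharringtonine and above DMSO with 1000 and 10000 nM triptolide. EFNB2 was at 0.889 (25 counts), 0 and 1.44 (13 counts) with 100 nM, above the highest DMSO well of 0.22 in both deep wells, at 0 in the wells with 1000 nM, and at 0.0397, 0 and 0 with 10000 nM.

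Of the receptors, EPHA2 was at 589.4, 459.8 (38 counts) and 603.6 normalised CPM with 100 nM triptolide, 312.9, 292.9 and 248.2 with 1000 nM and 235.1, 243.0 and 203.5 with 10000 nM, a log2(Fold Change) of 1.82, 0.81 and 0.45. As with homoharringtonine, the highest levels were at 100 nM. EPHB2 was at 306.1, 181.5 (15 counts) and 302.4, then 292.8, 313.7 and 280.3, then 307.2, 317.7 and 374.3, or 0.75, 0.80 and 0.93. EPHB4 was at 50.2, 12.1 (1 count) and 51.4, then 46.9, 42.7 and 34.9, then 45.3, 42.2 and 48.1, or −1.14, −1.39 and −1.30. The 3 members above DMSO turn under the mitochondrial scaling, where at 10000 nM EFNB3 was −1.70, EPHA2 −2.36 and EPHB2 −1.88, each nearer to DMSO than the median of all genes, and EPHA2 was −0.09 with library sizes alone.

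**Figure D3:**
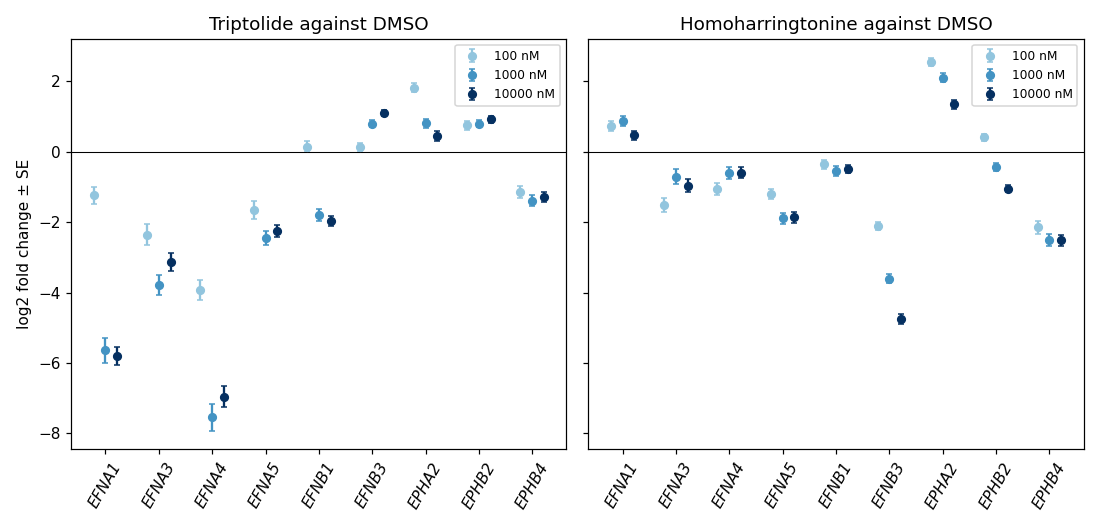
Log2(Fold Change) against DMSO of the 9 members fitted, for triptolide (description) and homoharringtonine at 100, 1000 and 10000 nM, with bars of 1 SE. EFNA4 is lowest with triptolide (−7.54 at 1000 nM) and EFNB3 with homoharringtonine (−4.75 at 10000 nM), and EPHA2 lies above 0 with both under the main scaling.

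The EFNA genes sit in a dense stretch, and 29 protein-coding neighbours overlap the 200 kb on each side of the cluster. With homoharringtonine 5 rose and 11 fell of 24 tested at 100 nM (all genes, 31.3% and 32.5%), 6 and 9 of 24 at 1000 nM (35.1% and 33.6%), and 6 and 14 of 25 at 10000 nM (37.0% and 37.3%). Neighbours did not share one direction: ENTREP3, which lies in the same stretch, was −3.31, −3.64 and −3.38 at the 3 doses, PYGO2, a cofactor of Wnt signalling, −0.39, −0.54 and −0.69, and SLC50A1, a sugar transporter, 0.65, 0.37 and 0.23. With triptolide, as a description, ADAM15, a metalloprotease gene, was 0.85, 1.13 and 1.14 and ENTREP3 −0.32, 0.84 and 0.92, while CLK2, a kinase of splicing factors, was −0.82, −5.03 and −4.84 and PYGO2 −1.99, −2.37 and −2.26. The median over the neighbours tested was 0.20, 0.66 and 0.71, above that of all genes at each triptolide dose.

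**Figure D4:**
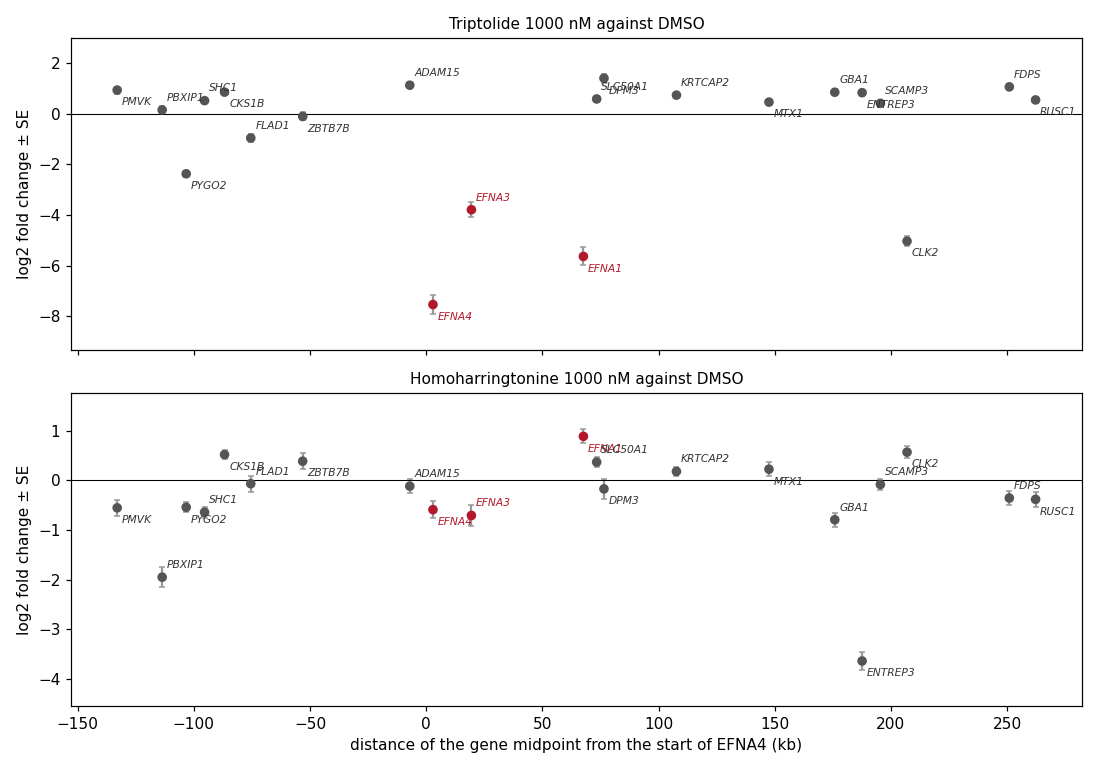
Log2(Fold Change) against DMSO of EFNA4, EFNA3, EFNA1 and the neighbours with a DMSO median of at least 10 CPM, by distance of the gene midpoint from the start of EFNA4 in kb, for 1000 nM triptolide (top) and 1000 nM homoharringtonine (bottom), with bars of 1 SE and the ligand genes in red. With triptolide the 3 ligand genes lie between −7.54 and −3.79, and among the neighbours shown CLK2 (−5.03) is the one in that range.

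With nilotinib EPHA2 was called higher at each dose, and EFNA3, EFNA4 and EPHB4 were called lower at the highest. At 100 nM 2 of 9 members were called (9.17% of all genes). EPHA2 was at 253.8, 345.8 and 301.6 normalised CPM, each well above the DMSO range, with a log2(Fold Change) of 0.89 ± 0.13 (adjusted p = 1.49e-04), and EFNB1 was at 38.1, 67.1 and 63.7, with 1 well inside the DMSO range, or 0.50 ± 0.14 (0.0217). EFNB1 did not pass without replicate 2 (0.38) or 3 (0.42). Neither gene passed with the replicate block, a fit with the well number as a factor and DMSO wells 1 to 3 alone as controls. In that fit EPHA2 was 0.78. At 1000 nM 1 member was called (4.15% of all genes): EPHA2, at 226.3, 279.6 and 190.7, was at 0.51 ± 0.14 (0.0432), and it did not pass without replicate 1 (0.55) or 2 (0.33). Its call also ended with library sizes alone (0.44), with no filter on low counts (0.51) or at least 10 counts in every well (0.48), with mitochondrial mRNA scaling (0.65), and with the replicate block (0.37) or the block and GC slope (0.50).

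At 10000 nM nilotinib 4 of 9 members were called (14.5% of all genes). EFNA4 was at 8.08, 9.90 and 9.78 normalised CPM, below every DMSO well, with a log2(Fold Change) of −0.77 ± 0.15 (adjusted p = 0.00113). EFNA3 was at 11.3, 11.8 and 11.5, below every DMSO well but the shallow replicate 10, or −0.61 ± 0.17 (0.0183), and EPHB4 at 64.1, 73.0 and 76.4, wholly below DMSO, or −0.59 ± 0.13 (0.00251). EPHA2 was at 230.9, 230.2 and 206.0, wholly above DMSO, or 0.47 ± 0.13 (0.0174). Leaving out any 1 replicate ended the call of EFNA3 (−0.60, −0.63 and −0.63), and leaving out replicate 1 or 2 that of EPHA2 (0.44 each). With scaling to mitochondrial mRNAs EPHA2 was −0.25, where the median of all genes moved by −0.69. Rises made 60.7, 58.3 and 55.6% of all calls with nilotinib at the 3 doses, and 97.4, 93.8 and 2.7% under that scaling, or 37.8 and 45.5% at the lower doses with library sizes alone. GC slopes were −0.188 to 0.538 at 100 nM and −0.299 to −0.06 at 10000 nM, and with the slope in the fit EFNA4 was −0.60, EFNA3 −0.42, EPHB4 −0.43 and EPHA2 0.56 at 10000 nM, all called, whereas with the replicate block and the GC slope together they were −0.25, −0.19, −0.23 and 0.036, none called.

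With pyrazolanthrone EPHA2 was called higher at the lowest dose and 3 other members were called lower at the highest. At 100 nM 1 of 9 was called (4.84% of all genes): EPHA2 was at 226.7, 266.5 and 257.1 normalised CPM, above every DMSO well, with a log2(Fold Change) of 0.66 ± 0.13 (adjusted p = 0.00684). It did not pass without replicate 2 (0.62) or 3 (0.64), with mitochondrial mRNA scaling (0.89) or with the replicate block (0.53). At 1000 nM edgeR called 0 members and 0.0% of all genes, with 1 member and 1030 genes at an unadjusted p under 0.05 and 0 members by DESeq2. At 10000 nM 3 of 9 were called (7.76%). EPHB2 was at 103.4, 112.3 and 115.2, wholly below DMSO, or −0.67 ± 0.11 (3.35e-04), EFNA1 was at 5.05, 3.90 and 4.41, wholly below DMSO, or −0.73 ± 0.15 (0.00323), and EFNA3 was at 11.1, 10.4 and 11.9, below every DMSO well but the shallow replicate 10, or −0.72 ± 0.19 (0.0169). EFNA1 did not pass without replicate 2 (−0.61), nor EFNA3 without any 1 replicate (−0.70, −0.65 and −0.77). GC slopes were −0.311 to −0.099 in these wells, and with the slope in the fit EFNA1 was −0.55, EFNA3 −0.49 and EPHB2 −0.51, all called. None of the 3 passed with the replicate block and GC slope together (−0.77, −0.34 and −0.42) or with mitochondrial mRNA scaling (−1.12, −1.12 and −1.06). Rises made 67.3% of all calls at 100 nM and 42.3% at 10000 nM, and 83.3% and 20.6% with scaling to mitochondrial mRNAs.

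MK-2206 and miglitol gave no call among the members with edgeR, and the log2(Fold Change) over the 9 members lay between −0.38 and 0.46 with MK-2206 and between −0.31 and 0.54 with miglitol. With MK-2206 the calls over all genes were 0.092%, 1.45% and 3.18% at the 3 doses, and 1, 2 and 1 members had an unadjusted p under 0.05. Rises made 74.2% of the calls at 1000 nM and 69.6% at 10000 nM, and 94.9% and 44.2% with mitochondrial mRNA scaling. DESeq2 called 1 member, EPHA2 at 1000 nM, with 0.48. By edgeR EPHA2 was at 237.7, 212.3 and 225.2 normalised CPM there, each above the DMSO range, or 0.46 (95% interval 0.20 to 0.73, adjusted p = 0.0963), and with the GC slope in the fit it passed at 0.41 (0.0325). With the replicate number as a block 0 members were called at 1000 nM, and with the block and GC slope 2, EPHA2 (0.41) and EFNB1 (0.24). The shares of all genes called in these fits are not given here. With miglitol, an inhibitor of an intestinal enzyme, 0.0% of all genes were called at 100 nM, 0.0% at 1000 nM and 0.0% at 10000 nM, with 987, 1570 and 4235 genes and 1, 1 and 3 members at an unadjusted p under 0.05 and 0 members by DESeq2. EPHA2 with 1000 nM miglitol was at 196.4, 304.7 and 202.4, or 0.54 (0.25 to 0.83, adjusted p = 0.196). That interval holds the sizes called with 1000 and 10000 nM nilotinib and with 100 nM pyrazolanthrone. With the replicate number as a block and DMSO wells 1 to 3 alone as controls, 5 members fell with 10000 nM miglitol. They were EFNA3 (−0.45), EFNA4 (−0.42), EFNB1 (−0.31), EPHB2 (−0.35) and EPHB4 (−0.40), and 0 fell with the block and the GC slope together. The 0.0% of all genes above is from the main fit and is no background for that count. The share called in the block fit is not given here, so the count does not set the family apart. The GC slopes of the 3 miglitol wells were −0.377 to −0.263, and those of DMSO wells 1 to 3 were 0.276, −0.006 and 0.311.

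**Figure D5:**
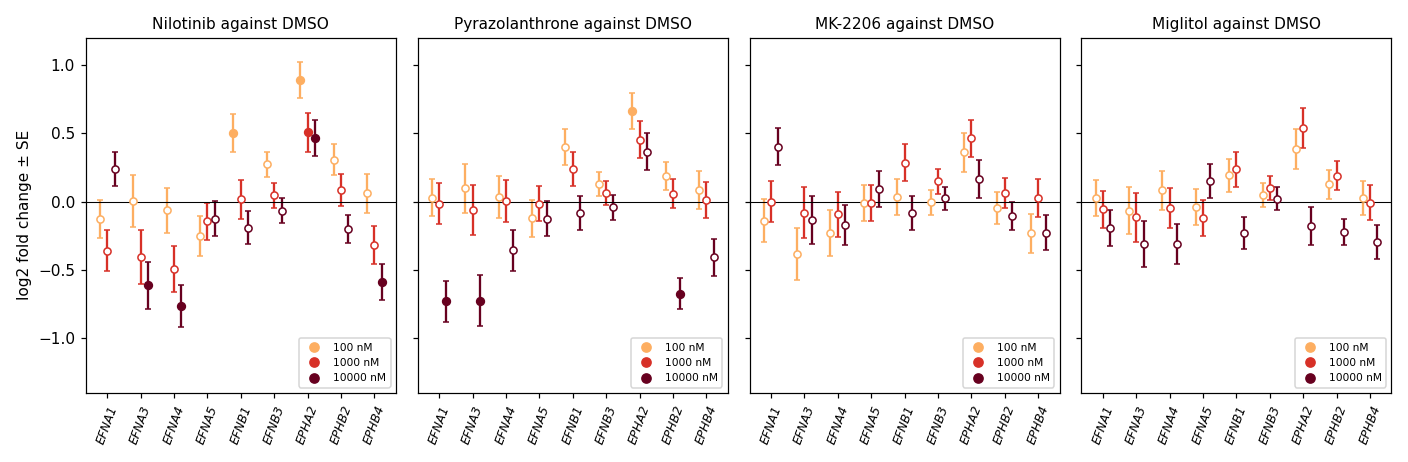
Log2(Fold Change) against DMSO of the 9 members tested with nilotinib, pyrazolanthrone, MK-2206 and miglitol at 3 doses, with filled points for called values, open points for the others and bars of 1 SE. EPHA2 is above 0 except with 10000 nM miglitol (−0.18), and the largest fall is EFNA4 with 10000 nM nilotinib (−0.77).

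Across the 18 compound and dose groups, the mean of EPHA2 was above its DMSO mean in 17, and in 11 of the 12 groups outside triptolide and homoharringtonine. In 4 of those 12 groups all 3 wells lay above every DMSO well. The groups share the same 18 DMSO wells, and the count carries no test.

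Several members followed the GC slope of the library within DMSO alone, where no compound was present. The slope was itself made from the gene levels of the same wells, so genes of high GC content tend to follow it by construction. Transcripts of the members held 48.0% (EFNA5) to 62.2% (EPHA2) GC, against a median of 50.0% over the genes used for the slope. The share of all genes that follow it was not computed, so these relations do not set the family apart. Over the 18 DMSO wells, Pearson's r between log2 level and GC slope was 0.94 for EPHB2 (Spearman's correlation 0.963, permutation test, two-sided, adjusted p = 4.5e-05 over 9 relations, r 0.953 without the 2 wells farthest from the median slope). It was 0.912 for EFNB1 (Spearman's 0.932, adjusted p = 4.5e-05, r 0.882 without the 2 wells) and 0.87 for EPHB4 (0.872, 6e-05, 0.864). EFNA1 (r 0.744), EFNA4 (0.636) and EFNA3 (0.545) also passed, at an adjusted p of 0.00119, 0.00835 and 0.0254 by permutation, whereas EPHA2 (0.405, 0.123), EFNA5 (−0.117, 0.652) and EFNB3 (0.113, 0.652) did not. With the slope as a covariate, chosen after the data were seen, EFNB3 with homoharringtonine was −2.07, −3.54 and −4.70, EPHA2 2.72, 2.30 and 1.61, EFNA1 0.96, 1.15 and 0.91, and EPHB2 0.61, −0.20 and −0.66. At 10000 nM homoharringtonine the slopes lay outside the DMSO range, so the values at that dose cannot part slope from compound.

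Of the 12 other ephrin and Eph genes, 11 were tested with homoharringtonine, of which 3 rose and 5 fell at 100 nM (all genes, 31.3% and 32.5%), 3 and 4 at 1000 nM (35.1% and 33.6%) and 3 and 5 at 10000 nM (37.0% and 37.3%). Their median log2(Fold Change) was −0.87, −0.11 and −0.54. EPHB6, a receptor whose kinase domain is inactive, fell the most, with −3.31, −2.96 and −2.89 at the 3 doses. EFNA2, a further A ligand, was at −1.93, −1.84 and −2.64, and EPHB1, a receptor for B ligands, at −0.87, −1.46 and −2.0. EPHA4, which binds ligands of both classes, was 0.95, 1.57 and 1.62 higher, and EPHB3, a receptor close to EPHB2, was 1.44 and 1.32 higher at 1000 and 10000 nM. With 10000 nM nilotinib EPHA4 (1.73, adjusted p = 2.9e-06) and EPHB1 (1.10, 6.7e-06) rose and EPHB3 (−0.78), EFNA2 (−0.68) and EPHA5 (−0.69) fell. With 10000 nM MK-2206, where no member was called, EPHA4 (0.91, 0.0328), EPHB1 (0.64, 0.0181) and EPHB6 (0.53, 0.00982) rose by edgeR.

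Of 51 adaptors, kinases and effectors of the pathway, 47 were tested, and 16 rose and 17 fell with 1000 nM homoharringtonine (median −0.09), near the 35.1% and 33.6% of all genes. RND1, a small GTPase, rose from a mean of 2.92 CPM in DMSO to 86.7, and reached the mean of 10 CPM needed to be named through the treated wells (log2(Fold Change) 4.91, adjusted p = 2.69e-19), and ABL2, a cytoplasmic tyrosine kinase, rose from 148.7 to 801.7 (2.43, 7.52e-15). LIMK1, which phosphorylates cofilin (−1.50, 3.82e-09), and NCK2, an SH2 adaptor (−1.41, 2.24e-10), fell. Of 13 genes of shedding, cleavage and turnover, 12 were tested, and 5 rose and 6 fell (median −0.35; all genes, 35.1% and 33.6%). MMP14, a membrane metalloprotease, fell from 135.2 to 10.3 CPM (−3.72, 4.32e-15) and PTPRJ, a receptor phosphatase, from 47.9 to 7.72 (−2.64, 2.03e-17), while CBLB, a ubiquitin ligase whose DMSO mean was likewise below 10 CPM (1.06, 2.61e-08), and PTPN1, a phosphatase (0.97, 4.57e-12), rose.

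Over the 19 group means, the protein-coding genes whose log2 level was most like each member's were drawn from 12494 genes by Pearson's r, as a description in which the 3 triptolide groups weigh heavily. They were TRIM21 and SPATA2L for EFNA1 (0.985 each), AHDC1 (0.986) and DNMT3B (0.979) for EFNA3, ARMC7 (0.992) and PIAS4 (0.99) for EFNA4, and VANGL1 (0.984) and HUNK (0.979) for EFNA5. For EFNB1 they were SETD1B and EPOP (0.977 each) and for EFNB3 VOPP1 (0.996) and MARVELD1 (0.989). For the receptors they were VASP (0.957) and OTUD5 (0.933) for EPHA2, PRPF19 (0.96) and RHOC (0.956) for EPHB2, and TBC1D24 (0.992) and H2AX (0.991) for EPHB4. Among the members themselves, EFNA3 and EFNA4 were most alike (0.94) and EPHA2 and EPHB4 least (−0.83).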

How the data were processed

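Poly(A) RNA of 72 wells of U2OS cells was sequenced from TruSeq Stranded mRNA libraries, and the authors quantified genes with RSEM. The processing notes also name HTSeq, DESeq2 and GRCh38, and versions and the annotation are not given in the sources used here. The deposited files give expected counts per gene, and the authors' TPM and FPKM, both length-corrected. Expected counts were rounded and 92 spike-in rows, 0.0158 to 1.12% of counts, were left out. Labels give the middle dose as 1000 nM, whereas the study's methods print 1 nM for it. The labels were used, and values at that dose and the dose trend rest on them.

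Each compound and dose (n = 3) was compared with the 18 DMSO wells by edgeR 4.0.16 (R 4.3.3) with TMM scaling, filterByExpr (minimum count 10), the quasi-likelihood test and Benjamini-Hochberg adjustment over all genes tested, with DESeq2 1.42.0 as an alternative. Normalised CPM are counts scaled to library size (CPM) after TMM. Fits were tried on simulated data modelled on 1000 nM homoharringtonine, over 18675 genes. edgeR recovered 86 of 98 genes changed by 2 on the log2 scale and 60 of 98 changed by 1, with 10 false calls. Few genes were changed there, in balanced directions, whereas most genes were called in the data. Scaling under so broad a response was thus not tried. Correlations used 100000 permutations, where 1e-05 is the smallest p they can give. Floors for a count of 0 are 3 counts and cover counting error only. Members and lists were chosen with earlier results of these data known. Of pathway lists, the 2 largest rises and falls called with 1000 nM homoharringtonine at a mean of at least 10 CPM were named. Of other family genes, some of those with a DMSO median of at least 1 CPM were named, not at every dose. EPHA6 and EPHA8, which also reached it, were left out. Of neighbours, those of at least 10 CPM were taken, with the values of some given only in the plot. For likeness, 2 genes per member were named. The GC slope, its combination with the replicate block, and the fit without DMSO replicate 10 were added after seeing the data. Another marker on the list used to check the cell line is not reported here.

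Labels number wells 1 to 3 in each group, without saying that a number marks a shared batch. Deviations of same-numbered wells from their group means, over 9430 genes, correlated above 0.1 in every pair in 2 of 18 groups against DMSO, MK-2206 at 1000 nM (0.624, 0.818 and 0.701) and miglitol at 10000 nM (0.121, 0.594 and 0.155). The mean over groups was −0.064. Fits against DMSO with the replicate block used the 3 wells of a group and DMSO wells 1 to 3 only. Their values differ from the main ones in the control wells as well as in the block, and these were not told apart. With the GC slope added, such fits leave few wells for estimating the error.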

Additional observations from a re-analysis of the deposited data

How the results depend on the processing

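Of 227 alternative values for the number of members called in 16 comparisons, 181 stayed within 1.5 times the main count and 46 did not, and the cause was not tested unless given. The share of all genes called also moved with the setting. With 10000 nM nilotinib 2686 of 18562 genes were called in the main fit. Under mitochondrial mRNA scaling 266 rose and 9716 fell. The counts below are given without such shares, so they do not set the family apart. With homoharringtonine, 9 were called at each dose, and 5, 5 and 5 with a stricter filter of at least 10 counts per well (fewer genes tested), 5, 5 and 5 with the replicate block and GC slope, and 5 at 1000 nM with mitochondrial mRNA scaling. Nilotinib gave 2 at 100 nM, but 5 with the GC slope, 1 with library sizes and 0 with the replicate block, 1 at 1000 nM, but 6 with the GC slope and 0 with the stricter filter, library sizes, no filter, the replicate block, the block with GC slope or mitochondrial scaling, and 4 at 10000 nM, but 0 with the block and GC slope and 7 with mitochondrial scaling. Pyrazolanthrone gave 1 at 100 nM, but 2 with the GC slope and 0 with the replicate block or mitochondrial scaling, and 3 at 10000 nM, but 1 with the stricter filter, 5 with the replicate block, and 0 with the block and GC slope or mitochondrial scaling. MK-2206 at 1000 nM gave 0, but 1 in a fit of all 72 wells, by DESeq2, with the GC slope or without DMSO replicate 10, and 2 with the block and GC slope. At 10000 nM it gave 0, but 2 with the GC slope. Outside triptolide, DMSO replicate 10 was the only shallow library in a fit against DMSO. Leaving out shallow libraries was therefore the same fit, though counted as a further alternative. Miglitol gave 0 at 1000 nM, but 1 in the fit of 72 wells and 1 with the block and GC slope, and 0 at 10000 nM, but 5 with the replicate block.

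Leaving out 1 replicate each gave 8 to 8, 7 to 9 and 9 to 9 members with homoharringtonine at the 3 doses, 3 to 6 on its trend, 1 to 4, 0 to 1 and 2 to 3 with nilotinib, 0 to 2, 0 to 0 and 1 to 2 with pyrazolanthrone, and 0 to 0 with MK-2206 and miglitol. Of 1983 alternatives for single members outside triptolide, 1857 were counted as unchanged, 70 lost the call, 52 gained one and 4 called values reversed. The 4 were EFNA3 (0.094), EFNA4 (0.075) and EFNB1 (0.45) with 10000 nM homoharringtonine under the replicate block and GC slope, and EPHA2 (−0.25) with 10000 nM nilotinib under mitochondrial scaling. Uncalled values that changed sign stand among the unchanged. With triptolide, mitochondrial scaling reversed EPHB2 (−0.90) at 100 nM, EFNB3 (−1.66), EPHA2 (−1.64) and EPHB2 (−1.67) at 1000 nM and EFNB3 (−1.70), EPHA2 (−2.36) and EPHB2 (−1.88) at 10000 nM, and library sizes EPHA2 (−0.091) at 10000 nM. EFNB1 and EFNB3 at 100 nM triptolide, at 0.14 and 0.13 in the main fit, were not assessed for reversal. With few counts left, depth limits EFNB2 throughout and EFNA1 and EFNA4 with triptolide.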
